A study of Mus musculus with 6 samples.

Results

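The myelin genes of oligodendrocytes examined here are Mbp, Mag, Mog, Mobp, Cnp, Bcas1 and Enpp2. They were chosen by symbol, and every entry of the 6 per-library lists of alternative splicing and transcript-end events that carried their GENCODE M21 gene identifier was taken. All 7 genes were found, out of 16154 genes listed in at least 1 library, and they held 41 of 132823 distinct events.

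Oligodendrocytes wrap axons of the central nervous system in myelin, a stack of membrane layers that speeds conduction and supports the axon. Compact myelin, where the layers are pressed together, holds Mbp and Mobp, whereas Mag, Cnp and Mog lie in the layers facing the axon, in the cytoplasmic channels and on the outer surface, respectively. Several of these genes make more than 1 protein from 1 gene by including or skipping short exons, and some of these choices change as an oligodendrocyte matures.

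The tissue was the nucleus accumbens (NAc), a reward region of the ventral striatum, taken with core and shell together from adult male C57BL/6N mice. In conditioned place preference (CPP) a mouse learns to link 1 compartment with a drug, and the animals were conditioned either with morphine or with saline injections. Each group had 3 RNA sequencing libraries of total RNA. The study's figure text shows each library as the tissue of a different mouse, whereas the series text counts more mice than samples in a group and the sample labels name no animal, so whether tissue was pooled is not settled here. The p-values below measure the spread between these libraries. The question was which transcript forms of the myelin genes were found after saline and after morphine conditioning.

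Each library was described by a list of events in its assembled transcripts, with no usable expression level, so the measurement was whether an event was listed. An exon-skipping event was listed where assembled transcripts with and without the exon were both found in a library. A transcript start or end was identified by the splice-side coordinate of its first or last exon. Over all genes, between 54660 and 62209 events and between 14243 and 14956 genes were listed per library. Relative depth was 1, 1.07 and 1.37 in saline libraries 1 to 3 and 1.2, 1.59 and 1.28 in morphine libraries 1 to 3. All 16 striatal neuron markers, all 10 astrocyte markers, all 10 microglia markers and all 6 ependyma markers were listed in every library. Of 8 endothelial and mural markers 7 were listed in every library and Cldn5 in none. Of 10 choroid plexus markers 6 were listed in every library, whereas Aqp1 and Slc4a5 were listed in none. A gene without an event is not listed, so absence of a marker does not show that it was not transcribed. The ependyma markers had 14, 14 and 16 events in the saline libraries and 19, 21 and 17 in the morphine libraries. A two-sided exact permutation test gave p = 0.1 for them, the smallest p that 3 against 3 libraries allow. The same exact permutation test gave p = 0.3 for striatal neuron markers and p = 0.7 for astrocyte markers. For endothelial and mural markers this exact permutation test gave p = 0.3, and for choroid plexus markers p = 0.6. Microglia markers had a mean of 24.7 events in both groups. Ependyma thus had the lowest p of these lists, without adjustment for their number. The marker event numbers were not divided by relative depth. The part of these other cells in the results below was not tested. In bulk tissue, fewer cells of a type and less RNA per cell cannot be told apart.

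The 7 myelin genes had 34, 34 and 31 events in the saline libraries and 34, 35 and 34 in the morphine libraries. The means were 33.0 ± 1.73 and 34.3 ± 0.577 events (SD, n = 3), the ranges overlapped, and the difference did not exceed the spread between libraries (p = 0.6, two-sided exact permutation test). Its direction depended on the scaling: morphine minus saline was 1.33 events as listed, -0.0863 per 10000 events of the library and -3.94 after division by relative depth (p = 0.8 and p = 0.4 for the scaled values, same exact permutation test). None of the 41 events was listed in all 3 libraries of 1 group and in none of the other, where 0.658% of the events of all genes met that rule. None of the 7 genes had event numbers that did not overlap between the groups, against 2.77% of all listed genes.

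Most events of the myelin genes were shared by all libraries. Of the 41 events 26, or 63.4%, were listed in all 6 libraries and 3 were listed in only 1. Among the events of all other genes 20.5% were listed in all 6 libraries and 50.5% in only 1. The share in all 6 libraries was 16.7% to 48.8% in the 3 lists of other oligodendrocyte genes described below. In the marker lists of other cell types it lay between 30.5% for striatal neurons and 52.8% for microglia. Exon skipping made up 34.1% of the myelin genes' events (14 of 41) and 9.69% of those of other genes, whereas intron retention made up 4.88% (2 of 41) and 19.8%. Of the 14 skipping events 11, or 78.6%, were listed in all 6 libraries, against 19.6% of the skipping events of other genes. Of the 23 transcript starts and ends 15 were listed in all 6 libraries, or 65.2% against 29.8%. These shares are a description, since events of 1 gene are not independent and depend on how deeply that gene was covered, which was not measured here.

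**Figure D1:**
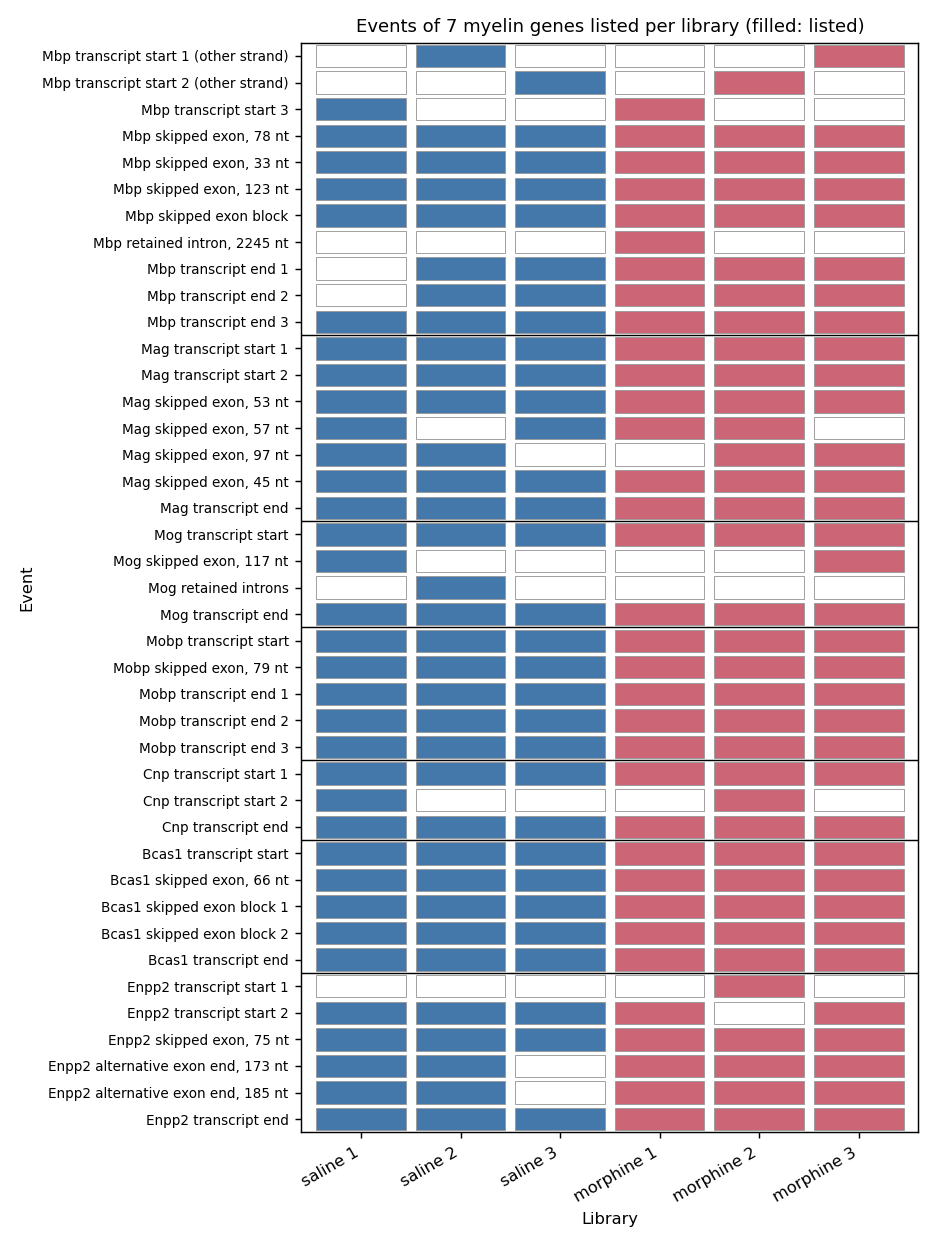
Presence of each of the 41 events of the 7 myelin genes (vertical axis, grouped by gene) in each of the 6 libraries (horizontal axis). A filled cell is a listed event, blue for saline and red for morphine; 26 lines are filled in all 6 libraries and none is filled in all 3 libraries of 1 group and empty in the other.

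**Figure D2:**
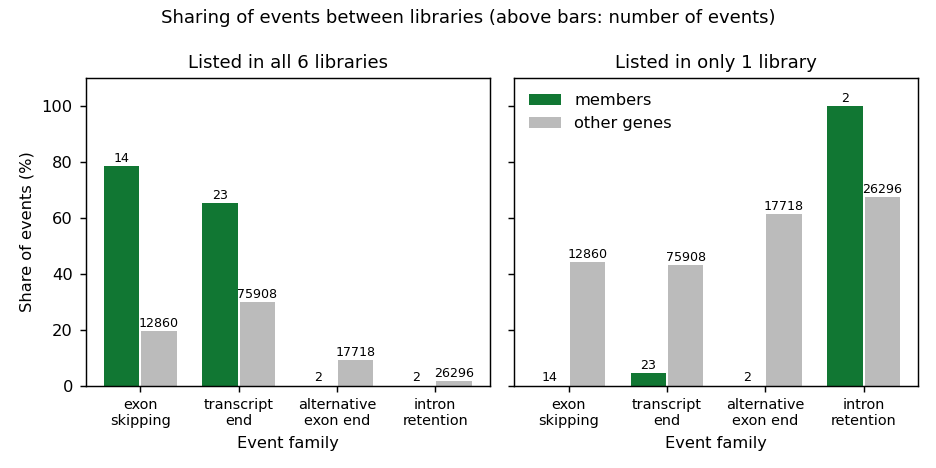
Share of events in percent (vertical axis) by event family (horizontal axis) for the 7 myelin genes (green) and all other genes (grey), listed in all 6 libraries (left) or in only 1 (right). The number above each bar is the number of events; of the myelin genes' 14 exon-skipping events 78.6% were listed in all 6 libraries and 0 in only 1.

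By family, exon skipping gave 14, 12 and 12 events in the saline libraries and 12, 13 and 13 in the morphine libraries. Both means were 12.7, with an SD of 1.15 in saline and 0.577 in morphine (p = 1.0, two-sided exact permutation test). Transcript starts and ends gave 18, 19 and 19 events after saline and 19, 20 and 19 after morphine (18.7 ± 0.577 and 19.3 ± 0.577, SD, n = 3, p = 0.6 by the same exact permutation test). Alternative exon ends gave 2, 2 and 0 events after saline and 2 in every morphine library. A retained intron or block of introns was listed in saline library 2 and in morphine library 1, at 1 event each. The groups overlapped in all 4 families.

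Per gene, Mbp had 6, 8 and 8 events after saline and 9, 8 and 8 after morphine (7.33 ± 1.15 and 8.33 ± 0.577, SD, n = 3, p = 0.6 and adjusted p = 1.0 by two-sided exact permutation tests with Benjamini-Hochberg adjustment over the 7 genes). Mobp and Bcas1 had 5 events in each of the 6 libraries. Mag had 7, 6 and 6 after saline and 6, 7 and 6 after morphine. Mog had 3, 3 and 2 against 2, 2 and 3, Cnp had 3, 2 and 2 against 2, 3 and 2, and Enpp2 had 5, 5 and 3 against 5, 5 and 5. The adjusted p was 1.0 for each of the 7 genes by this exact permutation test. Set against the 13061 protein-coding genes listed in all 6 libraries, whose median was 3 events per library, Mbp lay at percentile 90.1 by its mean number of events and Mag at 84.9. Bcas1 and Mobp shared percentile 76.2, Enpp2 lay at 73.5, Mog at 34.2 and Cnp at 28.8.

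**Figure D3:**
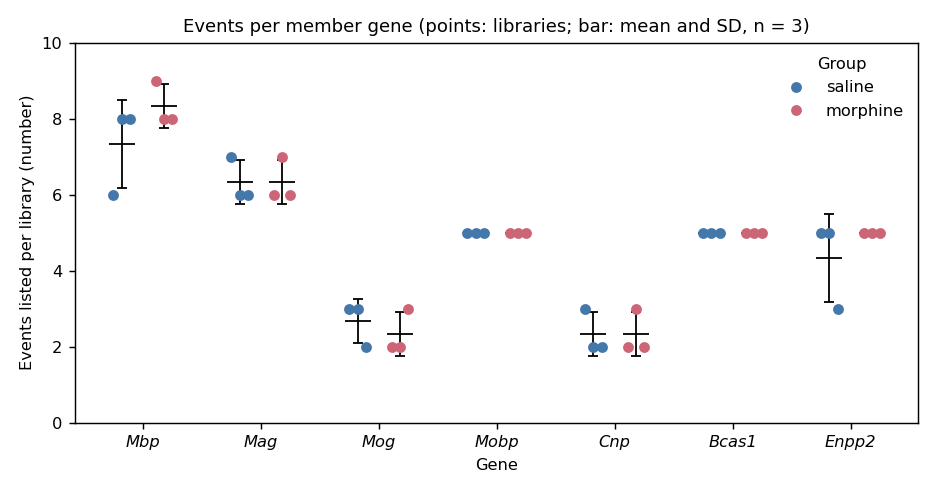
Number of events listed per library (vertical axis) for each of the 7 myelin genes (horizontal axis). Points are libraries, blue for saline and red for morphine, and bars are the mean and SD of 3 libraries; the points of the groups overlap for every gene, and Mobp and Bcas1 are at 5 in all 6 libraries.

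Mbp (ENSMUSG00000041607, chr18:82475146-82585637, plus strand, GRCm38) encodes myelin basic protein, which joins the cytoplasmic faces of compact myelin. It had 11 events, of which 5 were listed in all 6 libraries. The 3 coding exons that were skipped singly were the exon of 78 nt at chr18:82561778-82561855, the exon of 33 nt at chr18:82575601-82575633 and the exon of 123 nt at chr18:82578936-82579058. They are exons 2, 5 and 6 of the 7 exons of Mbp-209, and hold 26, 11 and 41 codons. Each of the 3 was listed as skipped and included in all 6 libraries, as was the block of the 33 nt and 123 nt exons skipped together. The classic forms of myelin basic protein differ by these exons, and the exon of 78 nt is known for forms that enter the nucleus and prevail early in myelination. Every skipping junction of these events is also in an annotated transcript.

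The starts listed under Mbp varied between libraries in both groups, and only 1 of them lay at the 5' side of the gene. The upstream first exon ending at chr18:82475394, used by the long golli transcripts of this gene, was listed as a start in saline library 1 and morphine library 1. The other 4 libraries each listed 1 start on the minus strand opposite the last exon, at chr18:82585011 in saline library 3 and morphine library 2, and at chr18:82585178 in saline library 2 and morphine library 3. The first exon of the classic transcripts, ending at chr18:82554750, was listed as a start in no library, although the skipping junction of the 78 nt exon begins there. Among the ends, the shared last exon beginning at chr18:82584112 was listed in all 6 libraries. The upstream ends of Mbp-208 (last exon from chr18:82512983) and Mbp-205 (last exon from chr18:82554320) were listed in all libraries other than saline library 1. A retained intron of 2245 nt at chr18:82572927-82575171 was listed in morphine library 1 alone.

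Mobp (ENSMUSG00000032517, chr9:120149707-120181484, plus strand) encodes myelin-associated oligodendrocyte basic protein, a small protein of compact myelin. All of its 5 events were listed in all 6 libraries. They were 1 start, whose outer end at chr9:120149742 coincided with the RefSeq start, 1 skipped exon and 3 ends. The skipped exon, of 79 nt at chr9:120154687-120154765, is exon 2 of the 4 exons of Mobp-202 and lies in the 5' untranslated part, so the coding sequence is the same with and without it. The last exons began at chr9:120168223 in Mobp-201, with 510 coding nt, at chr9:120173151 in Mobp-202, with 243 coding nt, and at chr9:120179525 in transcripts that are not classed as protein-coding.

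The length of the last of these Mobp exons differed between libraries without separating the groups. It was 1905, 6669 and 3706 nt in the saline libraries and 6812, 3619 and 6695 nt in the morphine libraries. Apart from saline library 1, which stopped 55 nt before the annotated gene end, it ran past that end by 1659 to 4852 nt. The outer ends of the other 2 last exons, of 1156 and 2941 nt, were the same in all 6 libraries and are annotated transcript ends.

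Mag (ENSMUSG00000036634, chr7:30899176-30914873, minus strand) encodes myelin-associated glycoprotein, an adhesion molecule of the myelin layer that faces the axon. It had 7 events, 5 of them in all 6 libraries. The exon of 45 nt at chr7:30900352-30900396, exon 12 of the 13 exons of Mag-203, was listed as skipped and included in every library. Its inclusion gives the small form of the protein (S-MAG, coding sequence of 1746 nt) and its skipping the large form (L-MAG, 1881 nt in Mag-207), which differ in their cytoplasmic tail. The exon holds 10 codons and then a stop. The sequence below, from the GENCODE M21 transcript on the sense strand, shows why inclusion ends the protein. It begins 24 nt before the exon and stops at the stop codon, which is in capitals.
Mag exon 12 to its stop: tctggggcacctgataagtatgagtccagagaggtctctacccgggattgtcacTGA

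The other Mag skipping events lay near the 5' end of the gene. An exon of 53 nt at chr7:30914269-30914321 in the 5' untranslated part was listed in all 6 libraries. A form of it that is longer by a few bases on its downstream side (57 nt, from chr7:30914265, exon 2 of Mag-206) was listed in saline libraries 1 and 3 and in morphine libraries 1 and 2. An exon of 97 nt at chr7:30912189-30912285 was listed in saline libraries 1 and 2 and in morphine libraries 2 and 3. It matched no annotated exon, and shares its upstream boundary with the last exon of the non-coding Mag-208, while the junction that skips it is in 7 annotated transcripts. Both starts, at chr7:30914269 and chr7:30914819, and the end at chr7:30899698 were listed in all 6 libraries. The RefSeq starts of Mag lay 2, 6 and 57 nt from the nearest listed start.

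Cnp (ENSMUSG00000006782, chr11:100574904-100591729, plus strand) encodes the phosphodiesterase that keeps the cytoplasmic channels of myelin open. It had 3 events and no splicing event. The start with a first exon of 165 nt ending at chr11:100575068, and the end with a last exon of 1382 nt from chr11:100580347, were listed in all 6 libraries. A first exon of 2002 nt, which has the same outer start and runs through the first intron to chr11:100576905, was listed in saline library 1 and morphine library 2. The 2 annotated transcripts with that exon, Cnp-202 and Cnp-204, are non-coding. Of the 13061 protein-coding genes listed in all 6 libraries 40.6% had, like Cnp, 0 splicing events.

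Mog (ENSMUSG00000076439, chr17:37010743-37023398, minus strand) encodes myelin oligodendrocyte glycoprotein, a surface protein of the outermost layer and a known target of autoimmune attack. Of its 4 events the start at chr17:37023112 and the end at chr17:37011517 were listed in all 6 libraries. The exon of 117 nt at chr17:37012336-37012452, exon 6 of the 8 exons of Mog-201, was listed as skipped and included in saline library 1 and morphine library 3. It holds 39 codons and is absent from Mog-202. It is shown because it was the only wholly coding exon of the 7 genes with a skipping event that was not listed in all 6 libraries. In the GENCODE M21 sense-strand sequence the exon is in capitals, between 12 nt of its neighbours.
Mog exon 6: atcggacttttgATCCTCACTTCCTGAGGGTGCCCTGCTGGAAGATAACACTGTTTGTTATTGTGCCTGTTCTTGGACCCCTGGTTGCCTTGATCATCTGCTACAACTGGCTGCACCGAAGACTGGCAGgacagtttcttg

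Retention of the introns on both sides of this Mog exon, a block of 2666 nt at chr17:37012084-37014749, was listed in saline library 2 alone. The first exon of Mog measured 88, 264 and 287 nt in the saline libraries and 287, 287 and 88 nt in the morphine libraries. Its 88 nt form was in the same libraries, saline 1 and morphine 3, that listed the 117 nt exon as skipped. Both groups thus held short and long forms. The longest first exon began at the RefSeq start.

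Bcas1 (ENSMUSG00000013523, chr2:170346991-170427845, minus strand) encodes a cytoplasmic protein that marks oligodendrocytes at the time they begin to make myelin. All of its 5 events were listed in all 6 libraries, and 3 of them were skipping events on exons 9, 10 and 11 of the 13 exons of Bcas1-201. The exon of 66 nt at chr2:170356248-170356313 was skipped singly, in transcripts that lacked both other exons. The exons of 66, 165 and 42 nt were skipped together, by a junction that Bcas1-208 also uses. The exons of 165 nt (chr2:170366364-170366528) and 42 nt (chr2:170370450-170370491) were further skipped as a pair with the 66 nt exon kept. The junction of that last form, from chr2:170378723 to chr2:170356313, is in no annotated transcript although it was listed in every library. The 3 exons hold 22, 55 and 14 codons, so each of these forms keeps the reading frame. Their sense-strand sequences from GENCODE M21 are given in transcript order, the exon in capitals between 12 nt of its neighbours.
Bcas1 exon 9: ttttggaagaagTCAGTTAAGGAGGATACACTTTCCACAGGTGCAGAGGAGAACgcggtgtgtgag
Bcas1 exon 10: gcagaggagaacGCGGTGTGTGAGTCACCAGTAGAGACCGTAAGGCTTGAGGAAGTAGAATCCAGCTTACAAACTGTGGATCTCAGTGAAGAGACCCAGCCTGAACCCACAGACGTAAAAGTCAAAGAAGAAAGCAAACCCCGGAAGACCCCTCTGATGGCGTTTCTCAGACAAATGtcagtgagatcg
Bcas1 exon 11: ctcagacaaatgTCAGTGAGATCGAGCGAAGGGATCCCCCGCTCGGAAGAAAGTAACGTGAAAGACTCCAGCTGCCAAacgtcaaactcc

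The single Bcas1 start was at chr2:170406274, the first exon of Bcas1-208. Its outer end at chr2:170406509, an annotated transcript start well inside the annotated gene, was the same in all 6 libraries. The last exon, from chr2:170348148, measured 1051, 1004 and 1058 nt in the saline libraries and 1028, 1011 and 1032 nt in the morphine libraries. These 6 different lengths overlapped between the groups.

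Enpp2 (ENSMUSG00000022425, chr15:54838901-54952892, minus strand) encodes autotaxin, a secreted enzyme that makes the lipid mediator lysophosphatidic acid. In brain it is made by oligodendrocytes and, in large amounts, by the choroid plexus, and the part of each in the events of this tissue was not tested. The choroid plexus marker Ttr was listed in all 6 libraries, and 8, 7 and 7 of the 10 choroid plexus markers were listed in the saline libraries and 8, 8 and 6 in the morphine libraries. Enpp2 had 6 events, 2 of them in all 6 libraries. The exon of 75 nt at chr15:54851348-54851422, exon 20 of the 26 exons of Enpp2-202, was listed as skipped and included in all 6. Its 25 codons mark the gamma form of autotaxin, which is known from brain. In the GENCODE M21 sense-strand sequence the exon is in capitals between 12 nt of its neighbours.
Enpp2 exon 20: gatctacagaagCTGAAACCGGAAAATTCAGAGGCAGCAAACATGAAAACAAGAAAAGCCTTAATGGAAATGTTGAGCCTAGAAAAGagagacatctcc

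Another Enpp2 exon, exon 19 of the 26 exons of Enpp2-203 and of Enpp2-204, was listed with both of its alternative ends. They were at 185 nt (chr15:54862498-54862682) and 173 nt (chr15:54862510-54862682), in all libraries other than saline library 3. The longer form adds 12 nt, or 4 codons, at the 3' side of the exon. These were the only events of the 7 genes listed as alternative exon ends. The 53 nt and 57 nt forms of the Mag exon, which also differ at 1 end, were listed as skipping events. The forms are shown side by side, from GENCODE M21 on the sense strand, with the 12 nt in capitals. The next exon in these sequences is not the 75 nt exon shown above, which Enpp2-203 and Enpp2-204 lack.
Enpp2 longer exon 19 and the next exon: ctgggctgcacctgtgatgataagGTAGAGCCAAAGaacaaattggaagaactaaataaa
Enpp2 shorter exon 19 and the next exon: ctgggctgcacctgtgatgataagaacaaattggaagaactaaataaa

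Among the 7 genes only the Enpp2 first exon had an outer coordinate in all 3 saline libraries and in no morphine library. No outer coordinate was in all 3 morphine libraries and in no saline library. The start at chr15:54919929 was listed in all libraries other than morphine library 2, which instead listed an upstream start at chr15:54952548, the first exon of Enpp2-205, at 322 nt. At the common start the first exon measured 74 nt in each of the 3 saline libraries, which is an annotated transcript start, and 229 and 243 nt in morphine libraries 1 and 3, which are not. The 74 nt exon was therefore in all 3 saline libraries and in no morphine library. When every coordinate counted as part of an event's identity it was the only group-specific event of the 7 genes, and 0.478% of the events of all genes met the rule under that identity. The morphine libraries did not share 1 outer coordinate, and whether this start depends on the treatment was not tested. The last exon measured 171 nt in all libraries other than morphine library 2, where it measured 636 nt and reached the annotated gene end.

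**Figure D4:**
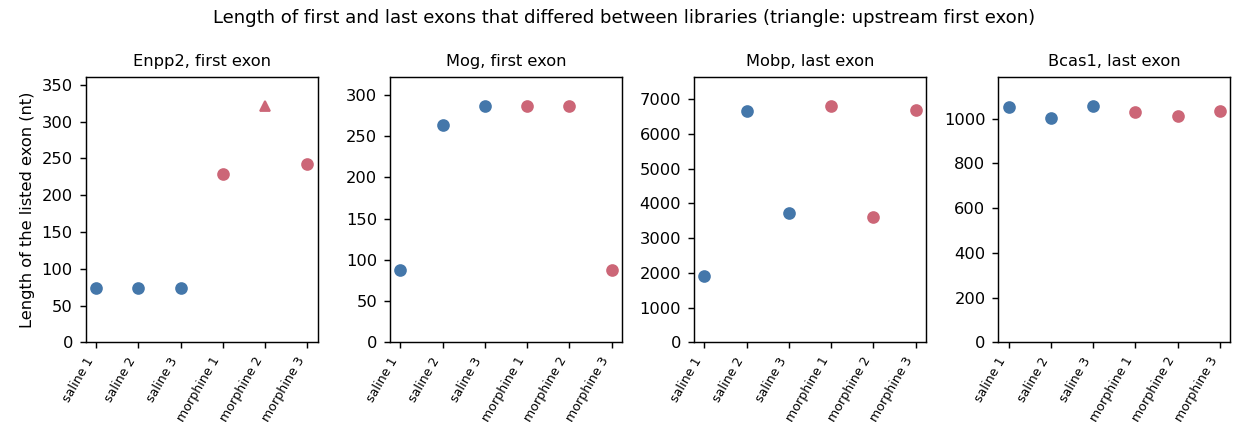
Length in nt (vertical axis) of the first exon of Enpp2 and Mog and of the last exon of Mobp and Bcas1 in each library (horizontal axis; blue, saline; red, morphine; the triangle is the upstream first exon of Enpp2). The common Enpp2 first exon is at 74 nt in the 3 saline libraries and at 229 and 243 nt in morphine libraries 1 and 3. Morphine library 2 has only the upstream exon, at 322 nt, which is a different exon. The groups overlap in the other 3 panels.

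The outer coordinates were otherwise mostly fixed. Of the 15 starts and ends that were listed in all 6 libraries 11 had 1 outer coordinate, and 4 varied, namely the last exons of Bcas1, Mobp and Enpp2 and the first exon of Mog. Each of the 11 fixed coordinates was an annotated transcript start or end. The varying Bcas1 and Mobp last exons had 6 different outer ends, with 0 libraries at an annotated end. Whether the fixed coordinates were measured or copied from the annotation was not tested. Of the 41 events 38 were at annotated positions, and 2 were the minus-strand starts opposite Mbp.

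The alternatively used exons with coding sequence had lengths that keep the reading frame. The skipping events and blocks of the 7 genes involved 13 distinct exons. The 9 with coding sequence, among which the Mag exon of 45 nt is coding up to its stop codon, measured 33 to 165 nt, each a multiple of 3. Of the 4 others, which are untranslated or unannotated, 1 was a multiple of 3. Counting single skipped exons that are wholly coding, the myelin genes had 6, all 6 multiples of 3 and 5 of them (83.3%) listed in all 6 libraries. Other genes had 5122 such exons, of which 61.2% were multiples of 3 and 29.6% were listed in all 6 libraries. Their median length was 76.5 nt in the myelin genes and 99 nt in other genes. These shares are a description, since the 6 exons are few and several are of the same gene, Mbp. Whether a length that is a multiple of 3 goes with listing in all 6 libraries was not tested.

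The sharing of these events between pairs of libraries is given as a description. The share of events common to a pair, out of those listed in either library, was 0.757 to 0.806 within saline and 0.816 to 0.838 within morphine. Between the groups it was 0.806 to 0.943, and the highest value, 33 of 35 events, was that of saline library 2 and morphine library 3.

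The other genes of the oligodendrocyte lineage were taken from 3 lists. The 32 other genes of myelin and mature oligodendrocytes were listed in all 6 libraries and held 172 events, of which 48.8% were in all 6. They had 107, 115 and 113 events after saline and 134, 109 and 102 after morphine (112 ± 4.16 and 115.0 ± 16.8, SD, n = 3, p = 0.9 by a two-sided exact permutation test). The highest and the lowest library were both of the morphine group. The genes with most events were Nfasc, which encodes an adhesion molecule of the node of Ranvier and its flanks made by neurons and glia, Hapln2, which encodes a link protein of the matrix at the node, and Sept4, which encodes a septin. Nfasc had 29 events, and 9, 11 and 11 were listed after saline and 26, 7 and 10 after morphine. Hapln2 had 15, of which 8 were retained introns, with 10, 5 and 5 after saline and 6, 4 and 4 after morphine. Sept4 had 11, with 7, 8 and 10 after saline and 10, 8 and 7 after morphine. The groups overlapped for all 3 genes.

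The 12 transcription and RNA-binding regulators of the lineage, which include Sox10 and Olig2 and the splicing regulator Qk, held 108 events, of which 16.7% were in all 6 libraries. They gave 45, 46 and 45 events after saline and 44, 54 and 38 after morphine (p = 1.0, two-sided exact permutation test). The 13 genes of oligodendrocyte precursors held 88 events and gave 52, 54 and 49 after saline and 64, 56 and 52 after morphine (51.7 ± 2.52 and 57.3 ± 6.11, SD, n = 3, p = 0.3 by the same exact permutation test). Of these, Lhfpl3 was listed in no library, which does not show that it was not transcribed, since a gene without an event is not listed. Over the 57 genes of the 3 lists 0 of 368 events were group-specific, against 0.658% of the events of all genes. Of these 57 genes 0 had event numbers that did not overlap between the groups, against 2.77% of all listed genes. At shares this low, counts of 0 are no result about these lists.

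**Figure D5:**
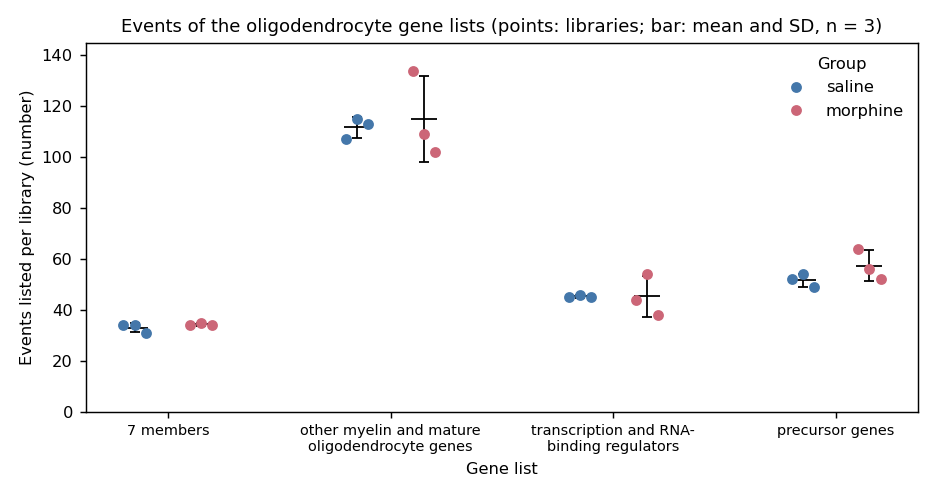
Number of events listed per library (vertical axis) for the 7 myelin genes and the 3 lists of other oligodendrocyte genes (horizontal axis). Points are libraries, blue for saline and red for morphine, and bars are the mean and SD of 3 libraries; the groups overlap in all 4 lists.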

How the data were processed

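Total RNA of NAc was sequenced in 6 libraries with a strand-specific protocol, and groups were taken from the treatment labels. Replicate numbers are names only. Per the study's methods, reads were mapped with HISAT2 and assembled with StringTie, and the assembly was compared with the annotation by gffcompare. The genome build, the program that made the event lists and whether the annotation guided the assembly are not given in the sources used here. Where an assembly is guided, outer ends can be copied from the annotation.

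The files of the authors list events, in the layout of the ASprofile program, by genome position. A column headed fpkm in these lists, deposited by the authors, held only 0 and negative whole numbers, a score whose making is not given in the sources used here. It was not used, so no expression level was available. A second deposited table gives read counts and FPKM values of the long non-coding transcripts that the authors had selected as differential. It served only for relative depth, from the ratio of count to FPKM at counts of at least 10. Its log2 fold changes and adjusted p-values are the authors' own comparison and were not used. The number of per-sample columns left unused was 0.

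The entries with and without an exon or intron were merged into 1 event. An event was identified by class, gene, strand and the coordinates of its exon or intron, and a start or end by its splice-side coordinate. Positions, exons and sequences came from GENCODE M21 on GRCm38 and count from 1. There, 99.3% of each library's gene identifiers were found, as were 80.8% of single skipped exons and 91.2% of retained introns. RefSeq starts (GRCm38.p6) were held for 4 of the 7 genes. The groups' event numbers were set against each other with an exact permutation test (two-sided), whose smallest p was 0.1. The counting was tested on simulated data. Alternatives were scaling to all events or to depth, all coordinates as identity, annotated positions only, the other strand left out, starts and ends left out, a looser rule for group-specific events, and each library left out. Events in all 6 libraries, group-specific events, single skipped exons, and the 3 richest genes of the list of other myelin genes were named by rule. The remaining events were added after their values were seen. The genes and lists were chosen with earlier results of these data known. The software was scipy 1.17.1, pandas 2.3.3 and numpy 2.4.6 under Python 3.11.15, with matplotlib 3.10.9 for plots.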

Additional observations from a re-analysis of the deposited data

How the results depend on the processing

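No paired analysis was possible because the labels give no replicate numbers shared by the groups. Of 132 recomputed differences between the groups 64 kept their sign, 12 changed it, 27 were 0 as before, 28 that had been 0 took a sign, and 1, that of Enpp2 without saline library 3, became 0. No difference in event numbers passed an exact permutation test under any setting tried, and the design could not go below p = 0.1, so the tests say nothing about stability. With depth differing between libraries, the difference in mean events, morphine minus saline (1.33 as listed), was -0.0863 per 10000 events of the library and -3.94 after division by relative depth. For splicing events (0.667 as listed) these values were -0.0218 and -1.75, and for transcript starts and ends (0.667 as listed) -0.0645 and -2.18. Division by depth made the difference of each of the 7 genes negative. It was -0.985 for Mag, -0.717 for Mobp and for Bcas1, -0.674 for Mog and -0.411 for Cnp. For Enpp2 it was -0.229 and for Mbp -0.203. Mobp and Bcas1 had 5 events in each of the 6 libraries, so their value is set by the depths alone. Where event numbers do not rise with depth, the division itself gives a negative sign, so the shared sign is no result about these genes. For the 57 other oligodendrocyte genes the values were -0.585 and -22.8.

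Leaving out each library in turn gave differences of 0.333 to 1.83 for all events, -0.5 to 1.5 for splicing events, with -0.5 without saline library 3, and 0.333 to 0.833 for starts and ends. Retained introns gave -0.333 to 0.333, Mbp 0.333 to 1.33, Mag and Cnp -0.333 to 0.333, Mog -0.667 to -0.167, Enpp2 0 to 1, and Mobp and Bcas1 0 throughout. The 57 other oligodendrocyte genes gave -3.17, without morphine library 1, to 21.8, without morphine library 3 (p = 0.1, exact permutation test, the smallest it can give). The number of group-specific events stayed at 0 without any 1 library and was 1 with all coordinates as identity, the Enpp2 first exon of 74 nt. Absence from a list does not show absence from the tissue at these depths.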
